A study of Homo sapiens with 16 samples.

Results

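CTCF binding on the long arms of chromosomes 1 and 5 was examined in MCF10A, a human breast epithelial line that does not form tumours, and in its derivative with the oncogene H-RAS Gv12, called G12V. Peaks of the 4 CTCF libraries that shared at least 1 bp were merged into sites. Sites on chromosome 1 starting at 143 Mb or beyond were counted as 1q, and sites on chromosome 5 starting at 50 Mb or beyond as 5q (hg19). There were 1483 sites on 1q and 1249 on 5q, together 2732 of the 29064 CTCF sites in all. The arms were chosen by a value measured in these same libraries, namely the higher local input background at their peaks, so that background is given below as a description, with no test. The last site outside 1q lay at 120510614 to 120511036 with a peak in 3 libraries, and the first inside at 143534552 to 143534803 with a peak in 1 library. The last site outside 5q lay at 49736583 to 49736809, 500 bp from a start site of EMB, and the first inside at 50046954 to 50047214, with a peak in 1 library each. Positions are given in hg19 on chromosome 1 for sites of 1q and on chromosome 5 for sites of 5q.

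The study asked whether CTCF and p53 change their binding sites upon HRAS transformation. CTCF was mapped by chromatin immunoprecipitation followed by sequencing (ChIP-seq) in 2 MCF10A libraries, labelled Parental, and 2 G12V libraries, each called against an input library of sheared chromatin without antibody. G12V cells were MCF10A cells transduced with a lentivirus carrying the HRAS oncogene together with a GFP vector and selected with hygromycin, with no single clone named. Cells of both groups grew in medium with EGF, insulin, hydrocortisone, cholera toxin and horse serum. The CTCF libraries carried no drug treatment in the labels, whereas 4 p53 libraries came from cells given Nutlin, which stabilises p53. The replicates were separate biological samples per the study's methods, and the p-values below rest on the spread between these 4 libraries.

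CTCF is a zinc-finger protein that recognises a long DNA motif and marks insulators and the borders of topological domains. Cohesin extruding a chromatin loop halts at bound CTCF, so the strand on which each motif lies matters for which sites pair. MCF10A is known to carry extra copies of 1q and of part of 5q. Copy number was not measured in these peak lists. The input background at a peak counts sheared chromatin from the same place, and it moves with the amount of DNA there, with mappability and with how open the chromatin is, which cannot be told apart here.

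The sequences of 10 sites, chosen from those with a match to the CTCF motif, show the DNA word that CTCF reads. The motif searched was a 12-letter core, CCANNAGNNGGC, on both strands within 150 bp centred on the summit of the strongest peak. Each line gives 40 bases of the reference genome (GRCh37, the build named hg19 in the labels) around the motif, read 5′ to 3′ on the motif's strand, with the 12 letters of the core in capitals. The first 4 are among the strongest sites of each arm that all 4 libraries shared, the next 4 were found in one cell type alone, and the last 2 stood at the highest and the lowest background.
FMN2, 1q, shared (chr1:240139825-240139864, minus strand): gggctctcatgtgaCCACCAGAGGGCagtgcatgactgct
LBR, 1q, shared (chr1:225662778-225662817, plus strand): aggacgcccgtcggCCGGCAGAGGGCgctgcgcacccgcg
FOXI1, 5q, shared (chr5:169497976-169498015, minus strand): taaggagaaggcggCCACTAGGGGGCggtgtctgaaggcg
PSD2, 5q, shared (chr5:139145199-139145238, plus strand): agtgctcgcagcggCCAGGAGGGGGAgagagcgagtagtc
OR2M4, 1q, G12V-specific (chr1:248406586-248406625, plus strand): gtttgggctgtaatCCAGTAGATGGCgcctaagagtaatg
IPO9, 1q, G12V-specific (chr1:201845446-201845485, minus strand): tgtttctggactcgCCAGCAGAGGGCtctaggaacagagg
NLRP3, 1q, MCF10A-specific (chr1:247537335-247537374, minus strand): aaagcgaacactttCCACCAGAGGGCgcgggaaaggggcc
FSTL4, 5q, MCF10A-specific (chr5:132656000-132656039, minus strand): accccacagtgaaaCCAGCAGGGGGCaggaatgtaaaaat
PDE4DIP, 1q, largest background (chr1:145059135-145059174, minus strand): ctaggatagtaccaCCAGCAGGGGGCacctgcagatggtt
PAM, 5q, smallest background (chr5:102017267-102017306, plus strand): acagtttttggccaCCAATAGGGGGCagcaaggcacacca
The LBR and PSD2 sites held the core with 1 mismatch, A3G and C12A (core letter, position from 1 at the 5′ end of the core, site letter). The other 8 held it exactly. Sites without the core were left out here, among them the strongest shared site of 5q, so these 10 are not typical. Of all sites on 1q and 5q, 23.2% held the exact core.

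The 4 libraries were uneven. MCF10A replicates 1 and 2 held 11346 and 20136 CTCF peaks, and G12V replicates 1 and 2 held 12004 and 27678. The depth at which peaks were called, recovered from the lists, ran from 10.7 to 13.5 M reads, so the lists differed more in length than in depth. Absence of a site from a list means only that it was not detected at that depth and enrichment. The fold enrichment and the p-value of a peak were written by the caller from 2 numbers, the summit pileup and the local background. Pileup is the height of stacked ChIP fragments, scaled down to the input in all 4 CTCF libraries. It is given below in fragments after that scaling. Background is the reads expected there from the input. Both were solved for at least 99.99% of CTCF peaks in every library. Where the local input fell below the genome-wide rate of a library, the background was that rate, at 4.25% to 10.2% of peaks. Between 41.6% and 49.1% of the recovered backgrounds were whole reads within 1 fragment length. Medians of background therefore moved in coarse steps, and means are given beside them.

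The local background was higher on 1q than on 1p in all 4 libraries. The median over peaks was 3 reads on 1q in each library, against 1.52, 2, 1.81 and 2 reads on 1p in MCF10A replicates 1 and 2 and G12V replicates 1 and 2. The ratio of the medians was 1.66 ± 0.22 (SD, n = 4 libraries), and that of the means 1.72 ± 0.06. The lowest ratio of means, 1.64 in G12V replicate 2, and the highest, 1.79 in MCF10A replicate 1, both lay well above 1. Relative to all chromosomes other than 1 and 5, the mean background of 1q was 1.81, 1.75, 1.67 and 1.65 in that order of libraries, whereas 1p stood at 1.01, 1.01, 0.97 and 1.01. Among 41 chromosome arms with at least 200 peaks, 1q ranked 1 by this mean, and the next arm stood at 1.33.

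On 5q the arm as a whole stood lower than 1q. The median background was 2, 2.27, 2.21 and 2.23 reads on 5q, against 1.52, 1.82, 1.81 and 1.78 reads on 5p. The ratio of the medians was 1.26 ± 0.04 and that of the means 1.40 ± 0.04 (SD, n = 4 libraries). 5q ranked 3 among the 41 arms, with a mean of 1.32 ± 0.06 relative to the other chromosomes, and 5p ranked 36, at 0.94 ± 0.03. The arm between them in rank was 21q, where the libraries numbered 2 stood at 1.75 and 1.54 and the libraries numbered 1 at 1.04 and 1.01.

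Along 5q the background went against the name of a gained arm for its near part. In every 10 Mb bin from 50 to 110 Mb the mean over libraries lay between 0.86 and 0.97 times that of the other chromosomes, which overlaps the 5p range of 0.59 to 0.99. From 110 to 120 Mb it was 1.08 ± 0.14, with G12V replicate 1 at 1.24 and G12V replicate 2 at 0.97. It was 1.32 ± 0.14 from 120 to 130 Mb, and between 1.44 and 1.51 in each bin from 130 Mb to the end of the arm. Split into stretches after the bins had been seen, the 350 sites from 50 to 110 Mb stood at 0.92 ± 0.01, the 130 sites from 110 to 130 Mb at 1.21 ± 0.12, and the 769 sites from 130 Mb on at 1.48 ± 0.05 (SD, n = 4 libraries). The last stretch held 1.55, 1.48, 1.43 and 1.44 in the 4 libraries, none of which came near the values of 0.91 to 0.93 of the first. Beyond 130 Mb both G12V values lay below both MCF10A values, whereas in the nearer stretches of 5q the cell types overlapped. This was not tested.

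On 1q every bin was raised in means, though not evenly. The 310 sites from 143 to 160 Mb stood at 1.65 ± 0.16 and the 413 sites from 160 to 200 Mb at 1.42 ± 0.13. The 760 sites from 200 Mb to the end stood at 1.89 ± 0.09. The highest bin, from 200 to 210 Mb, read 2.08 and 1.95 in MCF10A and 2.00 and 1.94 in G12V. The lowest, from 190 to 200 Mb, rested on 40 sites, only 7 of them with a peak in MCF10A replicate 1, and read 1.59, 1.10, 1.25 and 1.21. In medians over that of the library this bin read 1.90, 1.00, 1.005 and 1.0035. The G12V medians from 170 to 180 Mb were also near 1, at 1.04 and 1.01. Between 160 and 200 Mb the MCF10A libraries stood at 1.60 and 1.44 and the G12V libraries at 1.33 and 1.31, so the groups did not overlap there. That stretch was picked after its values were seen and got no test. With medians in place of means the 6 stretches of both arms kept their side of 1, and the near part of 5q then stood at 0.87.

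**Figure D1:**
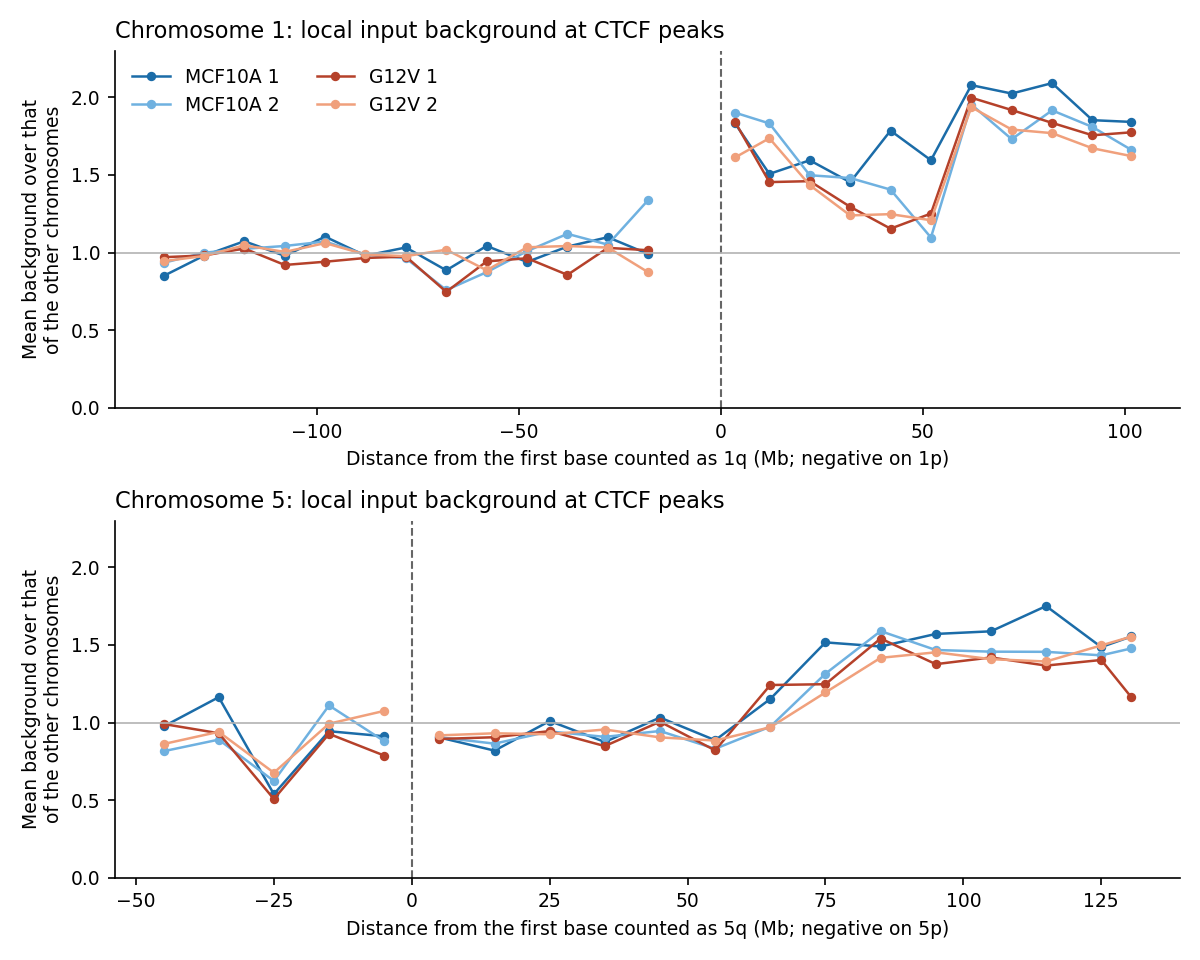
Mean local input background at CTCF peaks in bins of 10 Mb (vertical axis, as a ratio to the mean of the same library over chromosomes other than 1 and 5), against the distance in Mb from the first base counted as the long arm (dashed line; negative values lie on the short arm). Each line is 1 library. 1q lies above 1 in every bin, whereas 5q stays near the level of 5p up to 110 Mb of the chromosome. On average 5q stands at 1.08 from 110 to 120 Mb, 1.32 from 120 to 130 Mb and 1.44 to 1.51 in bins from 130 Mb on.

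Summit pileup was higher on these arms while fold enrichment hardly differed. At the sites that all 4 libraries shared, the median pileup on 1q was 28.5, 50.4, 29.8 and 63.7 fragments in MCF10A replicates 1 and 2 and G12V replicates 1 and 2, against 18.8, 32.3, 20.9 and 42.2 fragments on 1p. The ratio was 1.5 ± 0.05 (SD, n = 4 libraries). The median fold enrichment at the same sites was 7.19, 11.4, 7.21 and 14.6 on 1q and 7.48, 11.4, 7.43 and 14.1 on 1p, a ratio of 0.99 ± 0.04 that lay on both sides of 1 among the libraries. The median −log10 p was 1.35 ± 0.10 times that of 1p, higher in 4 of 4 libraries. A typical shared 1q site thus carried a higher pileup above more background. Peaks were called against that background, so a site needs more pileup to be called where it is higher. The part of peak calling in the pileup ratio was not tested.

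Chromosome 5 gave the same picture at a smaller size. Median pileup at shared sites was 23.97, 42.8, 24.8 and 55.3 fragments on 5q and 17.5, 30.4, 18.9 and 42.2 on 5p, a ratio of 1.35 ± 0.05. Median fold enrichment was 1.06 ± 0.05 times that of 5p, where only 71 shared sites stood behind each median. Over all peaks in place of shared sites that fold ratio was 0.99. Within 5q, pileup was higher in stretches with more background, under the same limit of peak calling. Relative to 5p it was 1.10 ± 0.07 from 50 to 110 Mb, 1.23 ± 0.07 from 110 to 130 Mb and 1.42 ± 0.05 from 130 Mb on. Within 1q, pileup relative to 1p was 1.36 ± 0.05, 1.32 ± 0.09 and 1.69 ± 0.06 in the 3 stretches from the centromere outwards, with the highest value again beyond 200 Mb.

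**Figure D2:**
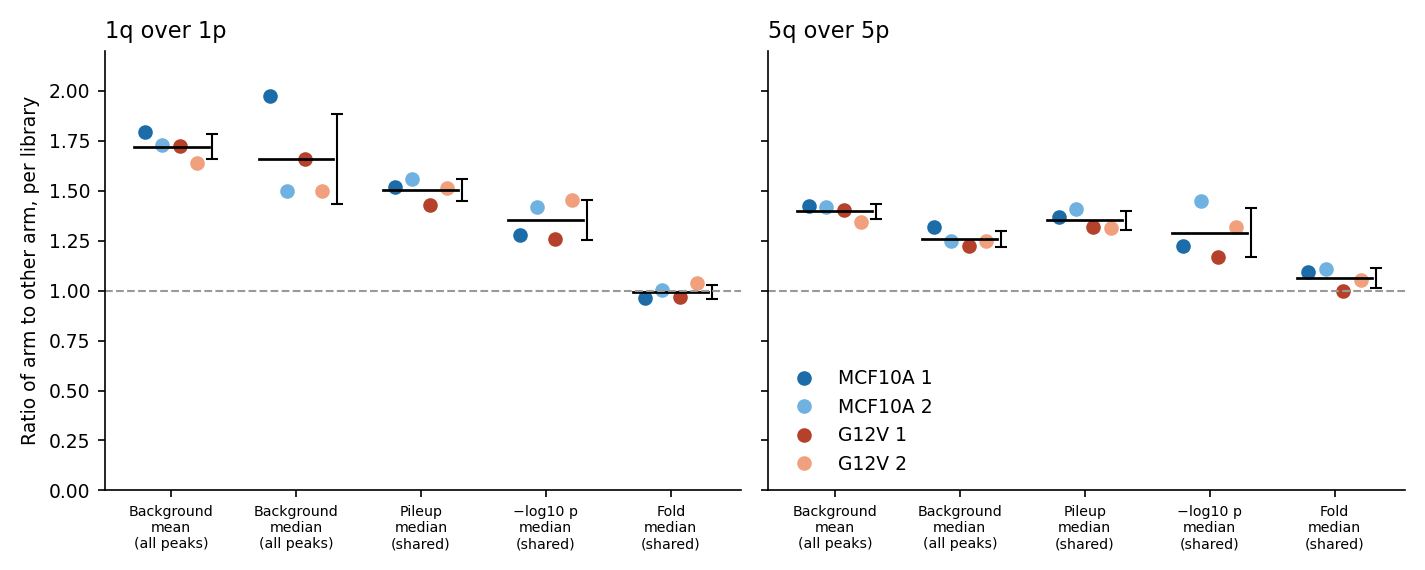
Ratio of 1q to 1p (left) and of 5q to 5p (right) for the local background (mean and median over all peaks) and for the medians at shared sites of summit pileup, −log10 p and fold enrichment, with 1 point per library, the mean as a line and the SD of the 4 libraries as a bar. Background and pileup lie above 1 in every library on both arms, whereas the fold enrichment lies near 1, at 0.99 on average for 1q and 1.06 for 5q.

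MCF10A and G12V were then compared, with 1 value per library. With 4 libraries only 6 assignments to the cell types exist, so an exact permutation test, two-sided, cannot give a p below 0.333 and none of the 6 comparisons tested could pass 0.05. Background, which chose the arms, was compared without a test. The fold of a peak contains that background, and pileup was solved together with it. Their p-values below are therefore not independent of how the arms were chosen. Taken from medians, the log2 background ratio of 1q over 1p stood at 0.98 and 0.58 in MCF10A and at 0.73 and 0.58 in G12V. The groups thus overlapped (difference −0.13). Ratios of means, without log2, kept the cell types narrowly apart. Both G12V libraries, at 1.722 and 1.638, fell below the MCF10A libraries, at 1.793 and 1.729. With medians of 10 kb steps alone or of shared sites alone the groups overlapped. The log2 pileup ratio on 1q came to 0.60 and 0.64 in MCF10A against 0.51 and 0.60 in G12V, with no overlap (difference −0.07, exact permutation p = 0.333, the smallest the design gives, adjusted over the 6 comparisons 0.667). The log2 fold ratio on 1q differed by 0.03 (exact permutation p = 0.667, adjusted 0.8).

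On 5q, the log2 ratio of median background over 5p stood at 0.40 and 0.32 in MCF10A and at 0.29 and 0.32 in G12V. The difference was −0.05, with the libraries numbered 2 equal. By ratios of means, without log2, both G12V libraries again lay lower, at 1.405 and 1.344, against 1.422 and 1.419 for MCF10A. The log2 pileup ratio came to 0.45 and 0.49 in MCF10A against 0.40 and 0.39 in G12V, with a difference of −0.08. The log2 fold ratio reached 0.13 and 0.15 in MCF10A against 0.00 and 0.07 in G12V, with a difference of −0.10. For pileup and fold the groups did not overlap, and each gave the smallest exact permutation p of 0.333, adjusted 0.667. The background difference on 5q changed sign when only 10 kb steps were used, to 0.11, and when only shared sites were used, to 0.21.

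The share of a library's peaks that lay on 1q was 6.18% and 5.38% in MCF10A against 6.56% and 5.00% in G12V (exact permutation p = 1, adjusted 1). It was larger in both shorter lists than in both longer ones. With each list cut to the length of the shortest, the difference on 1q was 0.42 percentage points in place of 0.0015, again at the smallest exact permutation p of 0.333, and that on 5q −0.05 (exact permutation p = 1). On 5q the share was 4.51% and 4.34% in MCF10A against 4.35% and 4.32% in G12V (exact permutation p = 0.667, adjusted 0.8). The 1q difference was smaller than the spread between libraries of a cell type, and its sign turned without MCF10A replicate 2, to −0.40 percentage points, and without G12V replicate 1, to −0.78.

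Sites were next sorted by the libraries that held them. On 1q, 594 sites (40.1%, 95% exact binomial interval 37.5% to 42.6%) were shared by all 4 libraries, against 27.5% of all CTCF sites and 476 sites (31.6%, 29.3% to 34.0%) on 1p. On 5q, 386 sites (30.9%, 28.3% to 33.6%) were shared, against 71 (22.2%, 17.8% to 27.1%) on 5p. These intervals cover counting error alone. Because the background chose the arms and is part of each peak's p-value, these shares carry no test. Most of the remaining sites rested on the longest list. On 1q, 21.1% of sites were found in G12V replicate 2 alone, 15.3% in the libraries numbered 2 of both cell types and 3.98% in MCF10A replicate 2 alone. On 5q those shares were 25.7%, 20.4% and 2.96%.

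The shared fraction varied along the arms, and not in the order of the background on 1q. On 1q it was 48.1% (42.4% to 53.8%) from 143 to 160 Mb, 30.5% (26.1% to 35.2%) from 160 to 200 Mb and 42.0% (38.4% to 45.6%) beyond 200 Mb. On 5q it was 17.7% (13.9% to 22.1%) from 50 to 110 Mb, 18.5% (12.2% to 26.2%) from 110 to 130 Mb and 39.0% (35.5% to 42.6%) from 130 Mb on. The stretches with many shared sites also had more genes. The far part of 5q held 8.90 protein-coding genes per Mb and the near part 3.47, and the first stretch of 1q held 21.6 against 6.25 in the middle stretch. The part of gene density in the shared fraction was not tested.

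**Figure D3:**
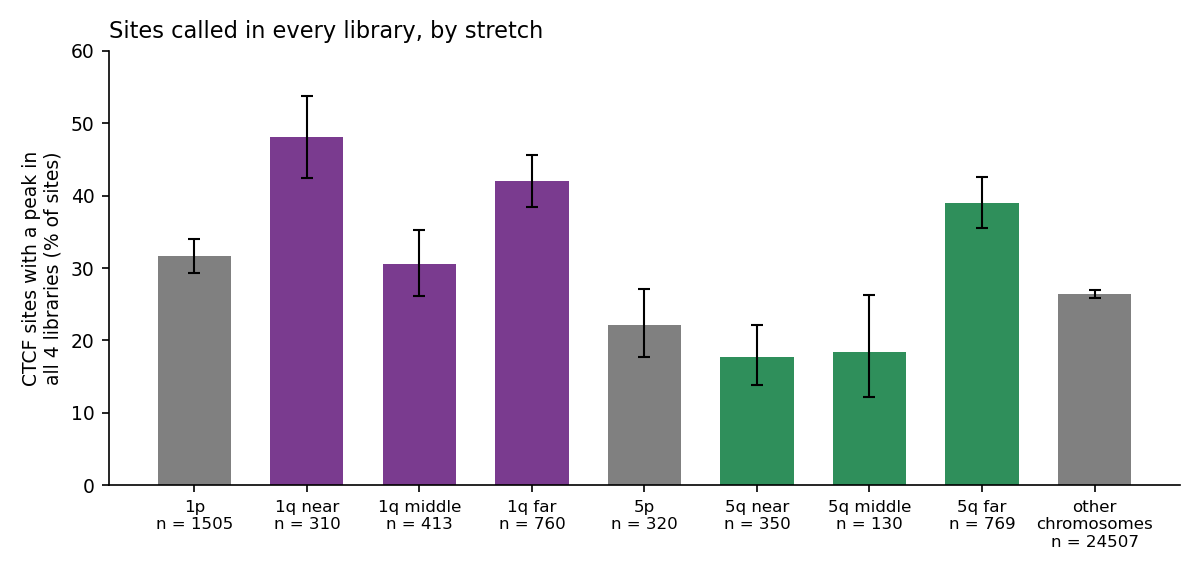
Percent of CTCF sites with a peak in all 4 libraries (vertical axis), for 1p, 5p, the remaining chromosomes and 3 stretches of each long arm: near, middle and far are 143 to 160, 160 to 200 and beyond 200 Mb on 1q, and 50 to 110, 110 to 130 and beyond 130 Mb on 5q. Bars are shares of the sites counted under them, with exact 95% binomial intervals, and the far stretch of 5q, at 39.0%, stands above the near stretch, at 17.7%.

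Sites with a peak in G12V replicate 2 were also set side by side at like fold enrichment in that library. This view was added after the arms had been compared. Fold is set by pileup and background together, so at like fold an arm with more background also has more pileup and a smaller p. A peak there is more readily called in another library. The shares below are thus not independent of the background that chose the arms, and they carry no test. Among sites at a fold of 6 to 10, a peak in G12V replicate 1 was also called at 41.4% (36.4% to 46.5%) of 384 sites on 1q, against 28.5% (24.5% to 32.8%) of 474 on 1p. At a fold of 10 to 15 the shares were 68.2% (63.3% to 72.8%) and 56.6% (51.8% to 61.3%), and at 15 and over 89.8% and 78.2%. Under a fold of 6 the order turned, with 13.4% on 1q and 17.4% on 1p, and the intervals overlapped. The median pileup in G12V replicate 2 at a fold of 10 to 15 was 51.5 fragments on 1q and 34.7 on 1p. The mean background there was 3.37 and 1.93 reads. In MCF10A replicate 1, the shares at a fold of 10 to 15 were 63.8% (58.9% to 68.6%) on 1q and 55.5% (50.6% to 60.2%) on 1p, whose intervals overlapped slightly. For 5q and 5p the same class gave 58.5% (52.8% to 64.1%) of 306 sites and 35.4% (25% to 47.0%) of 79 sites in MCF10A replicate 1, and 57.2% and 53.2% in G12V replicate 1.

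**Figure D4:**
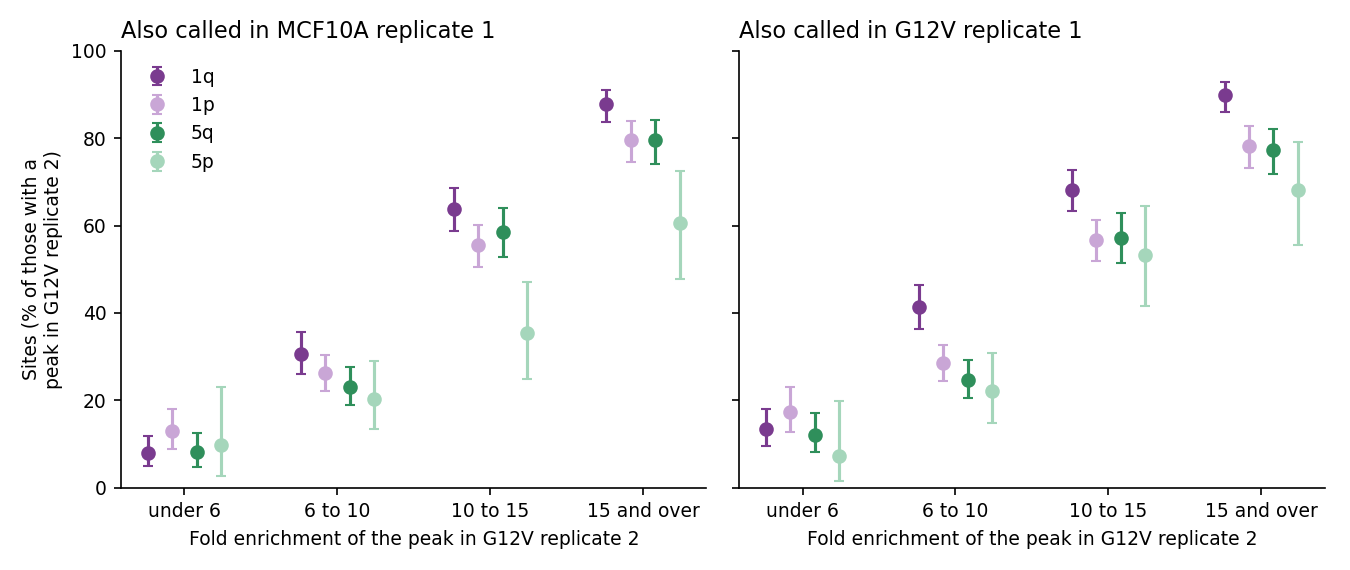
Percent of sites with a peak in G12V replicate 2 that were also called in MCF10A replicate 1 (left) or in G12V replicate 1 (right), by the fold enrichment in G12V replicate 2 (horizontal axis), for 1q, 1p, 5q and 5p with exact 95% binomial intervals. From a fold of 6 on, 1q lies highest in both panels, for example 68.2% against 56.6% on 1p at a fold of 10 to 15 in G12V replicate 1. At like fold an arm with more background also has more pileup, so this order is not independent of the background that chose the arms.

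G12V-specific sites, found in both G12V libraries and neither MCF10A library, numbered 44 on 1q and 27 on 5q. That was 2.97% and 2.16% of the sites of the arm, against 3.33% of all CTCF sites, 46 sites (3.06%) on 1p and 8 on 5p. MCF10A-specific sites numbered 7 on 1q and 3 on 5q, against 0.261% of all CTCF sites. On 1q both exact intervals, 2.16% to 3.96% and 0.190% to 0.970%, held the share over all sites. On 5q the interval of the G12V-specific share, 1.43% to 3.13%, lay below it. The classes depended on which libraries were required. Leaving out a library loosens the definition of a class, so a rise in its count is built in. Without G12V replicate 1, the G12V-specific sites became 357 on 1q (24.4% of sites) and 348 on 5q (28.1%), against 27.5% on 1p and 32.8% on 5p. Without MCF10A replicate 2 they became 162 (11.4%) and 116 (9.56%), against 11.6% on 1p and 14.2% on 5p. The MCF10A-specific ones became 66 and 40 without MCF10A replicate 1, 18 and 6 without MCF10A replicate 2, and 82 and 103 without G12V replicate 2. With each list cut to the length of the shortest they were 18 and 13, and the G12V-specific ones 27 and 20.

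The median fold enrichment of the 44 G12V-specific sites of 1q was 5.52 and 7.54 in G12V replicates 1 and 2, against 7.21 and 14.6 at shared sites. Their best rank in G12V replicate 1 was 1073 of 12004 peaks. The leading one lay in an exon of OR2M4, an olfactory receptor gene (248406464 to 248406863), with a fold of 10.3 and 11.6 in the G12V libraries. The next lay in an exon of IPO9, which encodes a nuclear import receptor, 1971 bp from a start site (201845200 to 201845685), with a fold of 6.30 and 11.6. Both were absent from the MCF10A lists.

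On 5q the leading G12V-specific site lay in an intron of SGCD, a sarcoglycan gene (155370816 to 155371240). It had a fold of 5.96 in G12V replicate 1 and 31.9 in G12V replicate 2, where it ranked 310. Its background was 4 reads in the first and 0.882 reads in the second, while its pileup was 28.8 and 59.0 fragments. Much of the gap in fold thus lay in the background. The value of 0.882 is the genome-wide rate of that library, used as a floor, and not a count at the site. The following sites lay 63.7 kb from CSNK1A1, a casein kinase gene (148828828 to 148829217, fold 6.50 and 14.98), and 8.70 kb from SV2C, a synaptic vesicle gene (75370357 to 75370714, fold 5.88 and 12.8).

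The leading MCF10A-specific site of 1q lay between genes, 42.1 kb from NLRP3, an inflammasome sensor (247537061 to 247537534), with a fold of 5.11 and 9.53. On 5q the 3 MCF10A-specific sites were the promoter of MEGF10, an engulfment receptor gene (126625582 to 126625975, fold 5.27 and 5.33), an intron of FSTL4 (132655888 to 132656173, fold 6.29 and 5.09) and a site 59.3 kb from SIMC1 (175605831 to 175606149, fold 5.88 and 4.19). No fold among these 4 sites reached 10, and no rank was better than 7322.

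The strongest shared sites of the arms ranked at the top of whole libraries. A site 37.8 kb from FMN2, the gene of a formin that nucleates actin filaments, at 240139629 to 240140125 ranked 8 and 1 in MCF10A and 13 and 6 in G12V. Its fold reached 18.3 and 38.1 in MCF10A against 17.9 and 36.3 in G12V, so the libraries of a number agreed across cell types more closely than those of a cell type. Its background was 2, 2, 2 and 2.23 reads, close to the levels of 1p. Another FMN2 site lay in an intron at 240190196 to 240190673, with folds of 12.9, 38.0, 17.8 and 22.7. A site 46.2 kb from LBR, which encodes the lamin B receptor of the inner nuclear membrane (225662568 to 225663072), ranked 2, 19, 8 and 39. There the background was 4, 3.40, 3.82 and 5 reads, and the fold 14.2, 20.7, 14.4 and 19.8.

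On 5q the strongest shared site was the promoter of KDM3B, a histone H3K9 demethylase gene, 221 bp from a start site (137687954 to 137689016). It ranked 1, 75, 3 and 16, with folds of 22.2, 14.9, 21.6 and 24.7, and the window around its summit held no core even with 1 mismatch. The next lay in an intron of DOCK2, a Rac activator gene of blood cells, 34.9 kb from FOXI1 (169497707 to 169498354), with folds of 20.7, 29.0, 20.1 and 22.0. The third lay 30.1 kb from PSD2 (139144671 to 139145711), with folds of 15.02, 13.0, 10.3 and 39.7. In its G12V replicate 2 peak the background was 1.78 reads, against 2 to 5 reads in the other libraries.

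Background at single sites spread more widely than the arm means. The highest among shared sites of 1q was in an intron of PDE4DIP (145058958 to 145059615), where 7.98, 11, 8 and 10.0 reads were expected, 4.65, 5.35, 4.04 and 4.87 times the mean of the other chromosomes. That part of 1q is known for copied segments of genes, and reads that aligned in several places were dropped by the authors. The next sites lay 16.3 kb from CDK18 (205457187 to 205457637) and in OPTC (203473592 to 203474189), at 3.69 and 3.39 times on average, both in the stretch beyond 200 Mb. The lowest were 37.2 kb from CRNN, a gene of the skin barrier (152423759 to 152424113), in RASAL2, a RAS GTPase activating protein gene (178158949 to 178159394), and 65.0 kb from FCGR2A (161410049 to 161410518), at 0.76 to 0.80 times.

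On 5q the highest lay in introns of SLC25A48 (135165806 to 135166192), PPARGC1B, a transcriptional coactivator gene (149208012 to 149208350), and KCTD16 (143847289 to 143847706), at 2.59 to 2.65 times. All 3 fell beyond 130 Mb. The lowest lay 72.4 kb from PAM (102017090 to 102017483), 255 kb from PARP8 (50218525 to 50218892) and in DMGDH near BHMT (78405685 to 78406141), at 0.50 to 0.61 times, and all 3 fell before 110 Mb. The PAM site had a fold of 9.89, 21.4, 9.91 and 20.4 over only 0.88 to 1.01 reads of background. Its G12V values, 1.01 and 0.88 reads, are the genome-wide rates of those libraries, used as a floor. The PARP8 and DMGDH sites also stood at that floor in some libraries.

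The exact core occurred at 355 sites of 1q (23.9%, 21.8% to 26.2%) and 280 of 5q (22.4%, 20.1% to 24.8%), against 419 on 1p (27.8%, 25.6% to 30.2%), 76 on 5p (23.8%) and 26.0% of all sites, which lay above the interval on 5q and inside that on 1q. In windows of the same length 2000 bp beside the summits it occurred at 0.94% and 0.56%. With 1 mismatch allowed the shares were 68.1% on 1q and 66.8% on 5q. Among shared sites 34.0% on 1q and 35.0% on 5q held the exact core, against 36.9% overall. Among sites of 1 library alone the share fell to 11.4% (8.50% to 14.97%) on 1q and 11.6% on 5q, against 19.0% (15.4% to 23.1%) on 1p and 15.6% overall.

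The core lay on the plus strand at 52.1% of motif sites on 1q and 45.0% on 5q. Between neighbouring shared sites with a core, 52 of 201 pairs on 1q faced each other, 53 faced away and 96 pointed the same way. On 5q the counts were 32, 32 and 70 of 134 pairs. Over the genome 25.4% of pairs faced each other, close to the 25.9% of 1q and the 23.9% of 5q.

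By position, 11.1% of 1q sites and 11.2% of 5q sites overlapped a promoter (1000 bp upstream to 500 bp downstream of a start site of a protein-coding gene), 36.3% and 37.6% were intronic, 6.07% and 4.16% exonic, and 46.5% and 47.0% intergenic. Over all CTCF sites the promoter share was 10.9%, and on 5p it was 6.25% (3.86% to 9.49%). The GC content around the summit had a median of 52.0% on 1q and 50.7% on 5q. There were 14.2 sites per sequenced Mb on 1q and 9.55 on 5q, against 12.5 on 1p and 6.82 on 5p, and protein-coding genes followed the same order, at 9.57, 5.57, 9.04 and 3.32 per Mb. Neighbouring summits lay a median of 36.6 kb apart on 1q and 51.1 kb on 5q.

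The 3 windows of 1 Mb with the most sites on each arm held more protein-coding genes than the average Mb of the arm, to differing degrees. The densest 1 Mb of 1q, from 156 to 157 Mb, held 46 sites, 27 of them shared, among 38 protein-coding genes, against a median of 12 sites in the windows of 1q that held any. On 5q the densest, from 176 to 177 Mb, held 35 sites among 25 protein-coding genes. The third, from 148 to 149 Mb, held 32 sites among 9 such genes, against 5.57 per Mb over 5q. The window next in rank to the densest, from 140 to 141 Mb, held 34 sites, 22 of them at promoters, among 67 protein-coding genes. Of its sites 9 were shared, where 30.9% of the sites of 5q and 27.5% of all CTCF sites were. This window covers the protocadherin clusters, whose neuronal cell-surface proteins are expressed from promoters that CTCF is known to bind. Of 17 protocadherin genes listed, 8 (47.1%) had a CTCF site within 10 kb of a start site, near the 46.5% of all protein-coding genes of 5q, and 1 had a shared one. That was at PCDHAC1, 220 bp from a start site (140305929 to 140306394), with folds of 5.46, 19.3, 12.3 and 8.98. PCDHB10 followed with a G12V-specific site 5261 bp away (fold 6.30 and 10.3). A nearer site, 12 bp from a start site of PCDHB10, was found in some libraries of both cell types. PCDHA13 came next with a site in the libraries numbered 2 alone (10.9 and 5.07).

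Genes of the arms were then read by function, as sites within 10 kb of a start site. Any site was found at 445 of 982 protein-coding genes of 1q (45.3%) and 335 of 721 of 5q (46.5%), the shares against which the lists below are to be read. Shared sites were found at 225 of 982 protein-coding genes of 1q (22.9%) and 126 of 721 of 5q (17.5%). Of 20 genes of RAS, MAPK and EGF receptor signalling, 10 (50%) had a site and 8 (40%) a shared one. By rank the leading members were RASSF5, a RAS effector gene, with folds of 5.89, 9.11, 5.25 and 17.7, FGF1, a fibroblast growth factor gene, with 8.54, 17.6, 6.50 and 21.2, and SHC1, an adaptor gene downstream of the EGF receptor, with 9.10, 14.3, 6.96 and 10.8. HBEGF, DUSP1, FGFR4 and EGR1 were among the others. None of the 10 with a site had a cell-type-specific one as its best, meaning the site found in the most libraries. That choice favours shared sites, and only 3.33% of all CTCF sites were G12V-specific and 0.261% MCF10A-specific. The share of all genes with such a best site was not counted.

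Of 22 genes of epithelial identity and the skin barrier, 13 (59.1%) had a site and 7 (31.8%) a shared one. They included MUC1, a surface mucin gene, with folds of 10.1, 17.9, 6.96 and 13.6 and the exact core 779 bp from a start site (155163235 to 155163703), S100A2, with 12.9, 9.36, 8.81 and 14.1, and S100A7, with 10.2, 19.0, 4.14 and 21.6. S100A8, an inflammatory calcium-binding protein gene, had a G12V-specific site 9397 bp away as its best, ranked 9328 and 18382 in G12V replicates 1 and 2. A nearer site, 3178 bp away, was found in some libraries of both cell types. Of 19 genes of basement membrane, matrix and integrins, 12 (63.2%) had a site and 4 (21.1%) a shared one. The leading of these was at LOX, the collagen cross-linking enzyme gene, 323 bp from a start site (121412318 to 121412817), with folds of 7.54, 14.3, 12.2 and 19.4. LAMB3, a laminin chain gene, had folds of 6.93, 13.1, 7.36 and 9.60 and VCAN, the versican gene, 9.48, 12.2, 5.47 and 18.1.

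Of 11 genes of the p53 response, 9 (81.8%) had a site but only TP53BP2 a shared one, with folds of 7.94, 7.62, 5.14 and 14.1. PLK2, a p53 target gene, had a site in 3 libraries and NUAK2 in 2. ATF3, a stress response factor gene, and CYFIP2 had G12V-specific promoter sites as their best, with folds of 4.37 and 6.72 and of 5.22 and 8.09. These were weak peaks, ranked 10105 and 10620 of 12004 in G12V replicate 1. In G12V replicate 2 they ranked 15054 and 19275 of 27678. The share of all genes with such a best site was not counted. Of 17 genes of the cell cycle and DNA repair, 4 (23.5%) had a site and only PARP1, which senses DNA breaks, a shared one, 71 bp from a start site (226595687 to 226596069), with folds of 11.1, 13.97, 10.9 and 17.2. CDC25C had a site in 3 libraries and NEK2 in 2. Of 12 cancer genes of the arms, 5 (41.7%) had a site and 4 (33.3%) a shared one, among them IRF1 and CSF1R, and PDGFRB, a growth factor receptor gene, led with folds of 9.30, 8.72, 14.5 and 22.9. APC was among the 7 without a site within 10 kb. These lists were drawn up with earlier results of the data known, so their counts are descriptions.

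The p53 libraries gave a view of the same arms from peaks that did not enter the CTCF sites. In medians, the background at p53 peaks of 1q was 1.69 and 1.96 times that of 1p in MCF10A (90 and 54 peaks on 1q) and 2.15 and 1.80 times in G12V (32 and 146 peaks). In means the order turned in MCF10A, where 1q stood at 1.74 and 1.90 times the other chromosomes and 1p at 3.88 and 2.08. In G12V the means were 1.28 and 1.70 on 1q and 0.70 and 0.97 on 1p. Relative to chromosomes other than 1 and 5, the median of 5q stood at 1.19 and 1.48 in MCF10A and 1.43 and 1.31 in G12V. Beyond 130 Mb of 5q, the median background over that of the library was 1.5, 1.51, 1.26 and 1.43, and from 50 to 110 Mb 1.00, 1.65, 1.19 and 1.01. The value of 1.65 came from 14 peaks of MCF10A replicate 2, and 1.19 from 4 peaks of G12V replicate 1. The far part stood above the near part in 3 of 4 p53 libraries, and in MCF10A replicate 2 the order was turned.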

How the data were processed

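Of 16 samples, the 8 ChIP samples each had 1 peak list and the 8 inputs entered through the caller. The authors aligned reads to hg19 with Bowtie, kept uniquely aligned reads and called peaks with MACS2 for each library against an input, at an FDR of 5%. Per the deposited lists, each peak has a score, its summit, and a fold enrichment (a ratio) with −log10 values of p and q.

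Pileup and background were solved from fold and p for peaks whose −log10 p did not pass 200, in Python 3.11.15 with scipy 1.17.1, and the solver was tested on simulated libraries. Sequence came from GRCh37 (pysam 0.24.0) and genes from GENCODE release 44 on that build. Calling depths were 10.7 to 13.5 M reads. Groups came from the sample titles.

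Cell types were compared by exact two-sided permutation tests, except for the background, whose planned test was dropped because it chose the arms, and shares carry exact 95% binomial intervals. Named sites were, per arm, the 3 shared and the 3 of each specific class that ranked best in their libraries by −log10 p (sum of ranks), and the 3 shared sites with the largest and the smallest background. For each gene list, the 3 genes whose site lay in the most libraries, then with the smallest sum of ranks, were named, and others to account for counts, after their values were seen. Members and lists were chosen with earlier results of these data known. Some sites and genes that these rules select are not reported here.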

Additional observations from a re-analysis of the deposited data

Results flagged for a closer look

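In the p53 libraries, the median background of 5q against 5p moved in opposite directions in the cell types. The log2 ratio of medians was 0.44 and 0.46 in MCF10A replicates 1 and 2 and −2.19 and −2.08 in G12V replicates 1 and 2. The difference was not tested. The 5p medians rested on 25, 4, 15 and 58 peaks in that order. In means MCF10A replicate 2 went the way of G12V, with 5q at 1.06 and 5p at 2.28 times the other chromosomes. The medians of 5q itself were alike (1.19 and 1.48 in MCF10A, 1.43 and 1.31 in G12V, relative to chromosomes other than 1 and 5), and the gap lay on 5p. Between 36 and 44 Mb of chromosome 5, the median background over that of the library was 0.85 at 10 p53 peaks of MCF10A replicate 1, 10.6 at 1 peak of MCF10A replicate 2, 7.97 at 9 peaks of G12V replicate 1 and 7.02 at 30 peaks of G12V replicate 2. In the CTCF libraries the same stretch stood at 0.87, 1.00, 1.00 and 1.00. The ratio of 5q to 5p in the p53 libraries of G12V was not used as a measure of 5q.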

How the results depend on the processing

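With 2 libraries in each cell type no comparison of cell types could pass 0.05 under any setting. Without a single library, G12V minus MCF10A ran on 1q from −0.32 to 0.0724 (log2 background, 0.0724 without MCF10A replicate 1), −0.11 to −0.03 (pileup), −0.0174 to 0.0826 (fold, −0.0174 without G12V replicate 2) and −0.78 to 0.78 percentage points (share of peaks, −0.40 without MCF10A replicate 2 and −0.78 without G12V replicate 1). On 5q it ran from −0.09 to −0.02, −0.10 to −0.06, −0.14 to −0.07 and −0.18 to −0.0075. The 5q background difference turned to 0.11 with 10 kb steps alone and 0.21 at shared sites. The cause was not tested.

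The ratio of 1q over 1p for pileup was 1.43 over all peaks, and without 1 library 1.49 to 1.53 for pileup, 1.55 to 1.71 for background and 0.98 to 1.00 for fold (1.004 without MCF10A replicate 1, 1.001 without G12V replicate 1). The ratio of 5q over 5p was 1.40 (means), 1.44 (10 kb steps) and 1.38 (shared sites) for background, 1.26 for pileup and 0.99 for fold over all peaks, and without 1 library 1.24 to 1.27, 1.33 to 1.36 and 1.05 to 1.09.

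Without 1 library, shared sites numbered 595 to 712 on 1q and 388 to 485 on 5q, G12V-specific sites 50 to 357 and 32 to 348, and MCF10A-specific sites 7 to 82 and 3 to 103. Each class is defined more loosely without a library, so such rises are built in. With lists cut to the shortest there were 27 G12V-specific and 18 MCF10A-specific sites on 1q and 13 MCF10A-specific sites on 5q, and at a −log10 q of at least 5 there were 4 MCF10A-specific sites on 1q. The share of sites with the core was 68.1%, 72.1%, 66.8% and 67.5% with 1 mismatch (1q, 1p, 5q, 5p), and 30.7% on 1p in a 300 bp window. The promoter share within 5000 bp either side was 24.7%, 25.8%, 21.1% and 16.2%.

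The labels share only replicate numbers. Over 980 shared sites, the log2 fold differences between libraries 1 and 2 in MCF10A and in G12V had a correlation of 0.04. A replicate block left each difference as it was (for example −0.0659 for the 1q pileup and −0.0798 for that of 5q) and cannot give an exact permutation p below 0.5. It changed no call.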
